A study of Mus musculus with 12 samples.

Results

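The genes of the major histocompatibility complex (MHC) and of the antigen presentation pathway were described in RNA-seq of the mouse cerebellum. Members were the protein-coding genes whose symbol begins with H2-, the prefix of the mouse MHC, together with B2m, Tap1, Tap2, Tapbp, Psmb8, Psmb9, Psmb10, Nlrc5, Ciita and Cd74. This gave 44 genes, 34 of them with an H2- symbol, of 55385 genes in the table, of which 21856 were protein-coding. A further 11 H2- symbols were not annotated as protein-coding and were not members. There were 3 libraries of EED-/- cerebellum, from conditional knockouts of Eed, and 3 of WT cerebellum. All were of the C57BL/6 strain at postnatal day 14. The Eed protein is part of the core of Polycomb repressive complex 2, the enzyme that trimethylates lysine 27 of histone H3 at silenced genes. No label names the Cre line, the exons removed or whether each library is a separate animal. The p-values therefore reflect spread between libraries, which may be technical.

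MHC class I molecules pair a heavy chain with the light chain beta-2 microglobulin and carry peptides that the proteasome cuts in the cytosol and the TAP transporter moves into the endoplasmic reticulum. Class II molecules pair an alpha with a beta chain, are held by the invariant chain Cd74 and receive peptides from endocytosed proteins, in an exchange that the DM molecule speeds and the DO molecule restrains. In healthy brain, class II is known mainly from macrophages at the borders and, at low level, from microglia, while class I is also made by endothelium and some neurons. The transactivators CIITA, for class II, and NLRC5, for class I, bind no DNA themselves. They act through factors on a shared promoter module, in which RFX and CREB proteins bind the X boxes and NF-Y binds a CCAAT motif called the Y box.

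Promoter sequences are shown for 3 members that were higher in EED-/- cerebellum, H2-DMb1, H2-Eb1 and H2-Q2, and for 2 abundant members that did not pass the test, H2-K1 and B2m. Each is the 250 bases before the RefSeq transcription start (GRCm38.p6), on the gene's own strand from 5' to 3'. Capitals mark matches on either strand to the motifs searched: TGACGC and TGACGT, forms of the CREB site; CCAAT, the Y box; a pair of GAAA words parted by any 2 bases, a form of the interferon-stimulated element; and the kappaB motif. The windows were chr17:34152941-34153190, plus strand; chr17:34305617-34305866, plus strand; chr17:35342057-35342306, plus strand; chr17:34000348-34000597, minus strand; and chr2:122147437-122147686, plus strand.
H2-DMb1: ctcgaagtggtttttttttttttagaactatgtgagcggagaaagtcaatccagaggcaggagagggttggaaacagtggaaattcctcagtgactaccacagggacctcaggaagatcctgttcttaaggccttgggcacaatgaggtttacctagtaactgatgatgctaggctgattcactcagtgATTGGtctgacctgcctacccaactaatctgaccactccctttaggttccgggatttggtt
H2-Eb1: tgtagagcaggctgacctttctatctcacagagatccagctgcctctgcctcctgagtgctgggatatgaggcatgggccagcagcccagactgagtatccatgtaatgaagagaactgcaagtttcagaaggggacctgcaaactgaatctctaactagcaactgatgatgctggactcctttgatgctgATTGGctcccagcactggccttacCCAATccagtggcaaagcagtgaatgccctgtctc
H2-Q2: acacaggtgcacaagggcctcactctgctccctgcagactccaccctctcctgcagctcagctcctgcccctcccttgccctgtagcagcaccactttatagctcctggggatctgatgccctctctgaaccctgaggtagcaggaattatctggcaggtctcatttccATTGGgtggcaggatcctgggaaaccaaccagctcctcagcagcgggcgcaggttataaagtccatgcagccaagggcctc
H2-K1: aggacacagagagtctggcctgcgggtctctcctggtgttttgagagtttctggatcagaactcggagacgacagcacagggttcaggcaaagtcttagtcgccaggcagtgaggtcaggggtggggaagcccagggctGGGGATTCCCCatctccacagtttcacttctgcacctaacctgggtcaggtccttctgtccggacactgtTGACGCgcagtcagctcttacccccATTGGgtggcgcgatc
B2m: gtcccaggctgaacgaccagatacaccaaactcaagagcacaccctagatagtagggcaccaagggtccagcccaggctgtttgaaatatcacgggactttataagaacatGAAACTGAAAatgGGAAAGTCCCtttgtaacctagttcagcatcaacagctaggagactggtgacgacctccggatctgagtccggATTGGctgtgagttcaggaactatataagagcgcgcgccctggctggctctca

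A CCAAT motif was present in all 5 windows. In H2-DMb1 it lay at positions -61 to -57 from the start on the reverse strand, and in H2-Eb1 at -59 to -55. The class II pair H2-DMb1 and H2-Eb1 shared the run aactgatgatgct of 13 bases, beginning at -92 and at -89, upstream of the CCAAT motif of each. The run was picked as the longest stretch that these 2 windows share. Of the 27025 genes with a promoter in the table, 2 held it, and these were the 2 genes it was picked from. H2-K1 held a TGACGC at -41 to -36 and overlapping kappaB matches at -111 to -101, and B2m held a match to the interferon-stimulated element at -139 to -130 and a kappaB match at -126 to -117. The promoter table held 37 of the 44 members, and 32 of the 37 (86.5%) had a CCAAT motif, against 37.5% of all genes in the table. The share was 8 of 8 among class II chains, chaperones and editors. The kappaB motif was in 10 of 37 members (27%), against 8.23% of all genes, and 7 of those 10 were tested class I heavy chains. TGACGT was in 8 of 37 (21.6%) against 7.29%, TGACGC in 3 (8.11%) against 6.93%, and the interferon-stimulated element in 3 (8.11%) against 3.46%. Of the 7 members higher in EED-/- cerebellum, 5 had a promoter in the table; all 5 held CCAAT, 1 (H2-M3) held TGACGC and kappaB, and none held the interferon-stimulated element or TGACGT. Several members are near-identical copies of each other, so these shares do not come from independent sequences. Only the motif forms listed were searched, so a site of another form would not be found, and a window without a match may still hold one.

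The libraries held 19621814 to 20366173 estimated counts each. Values are CPM, counts scaled to a common library total after TMM scaling between libraries, so that 1 CPM stands for about 20 counts. The filter on low counts kept 18091 genes for testing. Eed was at 11.6, 9.31 and 11.3 CPM in EED-/- libraries and at 20.1, 26.6 and 23.5 CPM in WT libraries, which do not overlap (log2 fold change -1.12, SE 0.15, edgeR quasi-likelihood adjusted p = 0.0015). Summed markers of the cerebellum's defining neurons were present in all libraries, but granule neuron markers were much lower in EED-/- libraries, at 398 ± 91.8 CPM against 3657 ± 370 CPM in WT libraries (SD, n = 3), with 6 of 6 called lower. In bulk tissue, fewer cells of a type and less RNA per cell cannot be told apart. Across all tested genes 2125 were called higher (11.7%) and 2544 lower (14.1%), together 25.8%, at an adjusted p under 0.05. The higher genes were 45.5% of the calls under TMM, 61.3% with upper-quartile factors and 58.6% with library totals only, which moved the median log2 fold change of all genes up by 0.12 and 0.10.

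A pair of libraries stood apart in some MHC genes, and the pattern was noticed after the values were seen. H2-Ab1, a class II beta chain, was at 10.6 CPM in EED-/- replicate 3 against 3.31 and 3.90 CPM in EED-/- replicates 1 and 2, and at 6.82 CPM in WT replicate 1 against 1.66 and 1.5 CPM in WT replicates 2 and 3. The nonclassical class I gene H2-T22 went the other way, at 6.61 CPM in EED-/- replicate 3 against 14.7 and 17.3 CPM, and at 7.23 CPM in WT replicate 1 against 15.6 and 13.9 CPM. Its neighbour H2-T10, annotated as a polymorphic pseudogene and no member, was at 0.899, 1.22 and 4.94 CPM in EED-/- libraries and at 3.64, 1.02 and 1.14 CPM in WT libraries. In these genes the 2 libraries lay nearer to each other than to the others of their own genotype. Between the outermost members on chromosome 17, 6 of 133 tested genes (4.51%) were at least 1.5-fold past both other libraries of the genotype in the same direction in EED-/- replicate 3 and WT replicate 1, on log2(CPM + 0.5), against 41 of 17943 tested genes elsewhere (0.229%). H2-Ab1, H2-T22 and H2-T10, given above as showing the pattern, are counted in the 6, so the share is partly fixed by that choice. The other genes of the 6 were Gm8909, A930015D03Rik and Gm8741, all higher in the pair. No other pair of libraries was compared in this way. Over all genes the deviations of these 2 libraries from their group means had a Pearson correlation of -0.19 across genes, which are not independent. What sets them apart was not tested. Without both libraries H2-T22 had a log2 fold change of 0.17 (edgeR adjusted p = 0.427), against 0.074 with all libraries (edgeR adjusted p = 0.912). Leaving out EED-/- replicate 3 alone gave 0.44 for H2-T22, and leaving out WT replicate 1 alone gave -0.14.

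**Figure D1:**
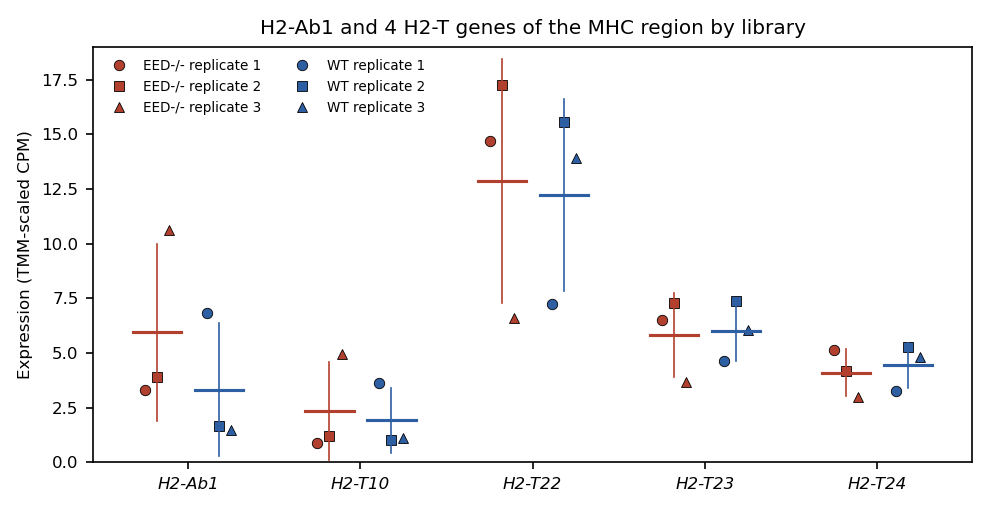
Expression in TMM-scaled CPM (linear axis) of H2-Ab1, H2-T10, H2-T22 and, beside them, H2-T23 and H2-T24, 1 point per library, EED-/- left of WT for each gene, with lines for the mean ± SD. In H2-Ab1 the 2 libraries were at 10.6 and 6.82 CPM, above the other 4, and in H2-T22 at 6.61 and 7.23 CPM, below the other 4.

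Of the 44 members, 29 had enough counts to be tested, 7 were called higher in EED-/- cerebellum and none lower. That is 24.1% of the tested members called higher, against 11.7% of all tested genes. The 7 were the class II genes Cd74, H2-DMb1, H2-DMa and H2-Eb1 and the nonclassical class I genes H2-Q2, H2-Q1 and H2-M3. H2-DMb1 and H2-Q1, and the uncalled H2-Q10, reached the filter on low counts in only 1 WT library. The share, the median and the count of positive values therefore include genes kept for their EED-/- level. The median log2 fold change of the tested members was 0.43, against -0.03 over all tested genes, and 19 of 29 had a positive log2 fold change, against 47.5% of all genes. At an unadjusted p under 0.05 there were 8 higher members and 1 lower member, against 17.6% and 20.5% of all genes. Groups did not overlap in 7 members with EED-/- higher and in 1 member (Ciita) with EED-/- lower, against 20.1% and 23.8% of all genes. In the authors' deposited table, 4 of the 36 members with a p-value were higher (Cd74, H2-DMb1, H2-Q2 and H2-Q1) and none lower, beside 6.04% higher and 6.7% lower of its 35173 genes with a p-value.

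In GRCm38, 39 members lay on chromosome 17 between 33915899 and 37483552, and the other 5 were B2m on chromosome 2, Nlrc5 and Psmb10 on chromosome 8, Ciita on chromosome 16 and Cd74 on chromosome 18 (60803848 to 60812652, plus strand). The called genes of chromosome 17, all on the plus strand, were H2-DMa (34119541 to 34139101), H2-DMb1 (34153072 to 34160230), H2-Eb1 (34305867 to 34316674), H2-Q1 (35320405 to 35325099), H2-Q2 (35342242 to 35346762) and H2-M3 (37270220 to 37274484).

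The other 15 members were not tested. Of these, 8 had 0 counts in every library (H2-M1, H2-M9, H2-M10.1, H2-M10.3, H2-M10.4, H2-M10.5, H2-M10.6 and H2-M11), which allows up to 0.141 to 0.161 CPM per library for counting error alone. The H2-M1 and H2-M10 genes are known in the mouse from the vomeronasal organ. The remaining 7 were H2-M10.2, H2-M2, H2-T3, H2-Eb2, H2-DMb2, H2-Oa and H2-Ob, each below 0.8 CPM in every library. H2-Q1, H2-Q10 and H2-DMb1 passed the filter on low counts (0.495 CPM in at least 3 libraries) through all EED-/- libraries and 1 of the WT libraries, so the counts and median above include genes that were kept for their level in EED-/- cerebellum.

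**Figure D2:**
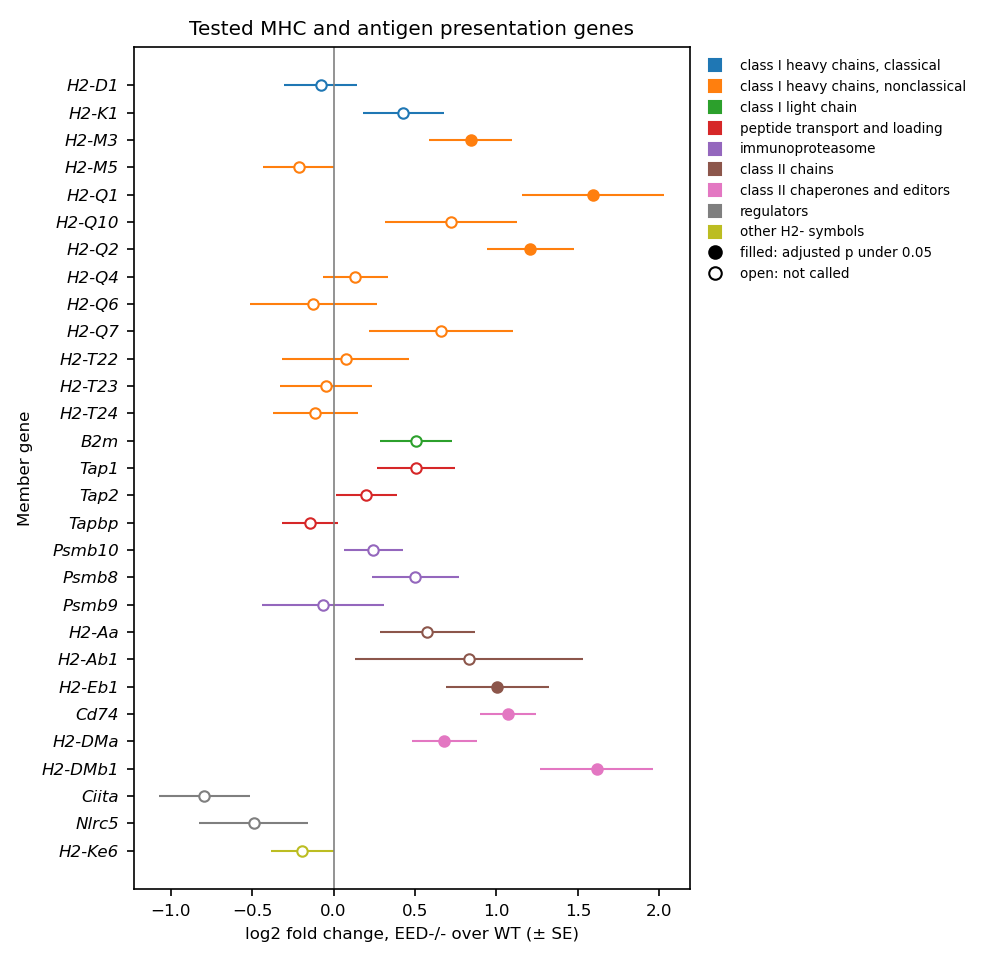
Log2 fold change of EED-/- over WT (horizontal axis, bars ± SE, n = 3 libraries per genotype) for the 29 tested members, coloured by role. The 7 called members lie between 0.68 (H2-DMa) and 1.61 (H2-DMb1), and Ciita is the lowest at -0.79.

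Among class II genes, the chaperone and the peptide editor rose. Cd74, the invariant chain, was at 6.44, 7.48 and 6.36 CPM in EED-/- libraries and at 3.13, 3.0 and 3.51 CPM in WT libraries. Every EED-/- library was above every WT library, and the fold was 2.10 (log2 fold change 1.07, SE 0.17, edgeR adjusted p = 0.00304). H2-DMb1, a beta chain of DM, was at 1.80, 1.74 and 1.76 CPM in EED-/- libraries and at 0.462, 0.376 and 0.879 CPM in WT libraries. The EED-/- values were close together, while WT replicate 3 was the highest of the WT libraries; the fold was 3.06 (log2 fold change 1.61, SE 0.35, edgeR adjusted p = 0.0107), resting on 7 to 17 counts per WT library. H2-DMa, the alpha chain of DM, was at 5.59, 5.46 and 5.24 CPM in EED-/- libraries and at 3.80, 2.58 and 3.77 CPM in WT libraries. The groups did not overlap, with a fold of 1.60 (log2 fold change 0.68, SE 0.20, edgeR adjusted p = 0.0375). The second DM beta chain, H2-DMb2, was at 0.237 to 0.783 CPM in EED-/- and 0.154 to 0.413 CPM in WT libraries, and the DO chains H2-Oa and H2-Ob were also below the filter. Summed over these 6 chaperones and editors, the level was 15.1 ± 0.682 CPM in EED-/- and 7.85 ± 1.15 CPM in WT libraries (SD, n = 3).

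The class II alpha and beta chains were more variable. Of these 4 members the only alpha chain was H2-Aa, the partner of H2-Ab1, so H2-Eb1 had no alpha chain partner among the members. H2-Eb1, a beta chain, was at 2.08, 2.21 and 1.37 CPM in EED-/- libraries and at 0.770, 0.805 and 1.24 CPM in WT libraries. EED-/- replicate 3 was only just above WT replicate 3, and the fold was 2.01 (log2 fold change 1.0, SE 0.32, edgeR adjusted p = 0.0474). H2-Aa, the alpha chain of the A molecule, was at 1.18, 1.79 and 1.86 CPM in EED-/- libraries and at 1.08, 0.912 and 1.24 CPM in WT libraries, which overlap (log2 fold change 0.58, adjusted p = 0.182). Its partner H2-Ab1, given above, had a log2 fold change of 0.83 with an SE of 0.70 (adjusted p = 0.435). Without EED-/- replicate 3 alone the log2 fold change of H2-Ab1 was 0.17 (edgeR adjusted p = 0.887), and without WT replicate 1 alone 1.96 (edgeR adjusted p = 0.0529). It was 0.51 without WT replicate 2 and 0.48 without WT replicate 3. Without EED-/- replicate 3 and WT replicate 1 together, H2-Ab1 had a log2 fold change of 1.24 (edgeR adjusted p = 0.0086) and 5 of the 6 tested class II genes were called higher, against 4 with all libraries. The number was 2 without EED-/- replicate 1 or 2 or without WT replicate 2 or 3. EED-/- replicate 3 and WT replicate 1 were singled out by genes that include H2-Ab1. Leaving out this pair therefore narrows the spread of H2-Ab1 by choice, and the p-values and calls without the pair are not a test. H2-Eb2 was at 0.188 to 0.473 CPM in EED-/- and 0.154 to 0.161 CPM in WT libraries and was not tested. The sum of the 4 chains was 7.05, 8.09 and 14.2 CPM in EED-/- libraries and 8.82, 3.54 and 4.13 CPM in WT libraries, so WT replicate 1 overlapped the EED-/- range. The log2 fold change of the sum was 0.83 (SE 0.39, edgeR adjusted p = 0.162) with all libraries and 0.52 without EED-/- replicate 3 (edgeR adjusted p = 0.403). It was 1.40 without WT replicate 1 (edgeR adjusted p = 0.0192) and 1.03 without both libraries (edgeR adjusted p = 0.00562). The value without both libraries has the limit given above, as H2-Ab1 is part of the sum.

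**Figure D3:**
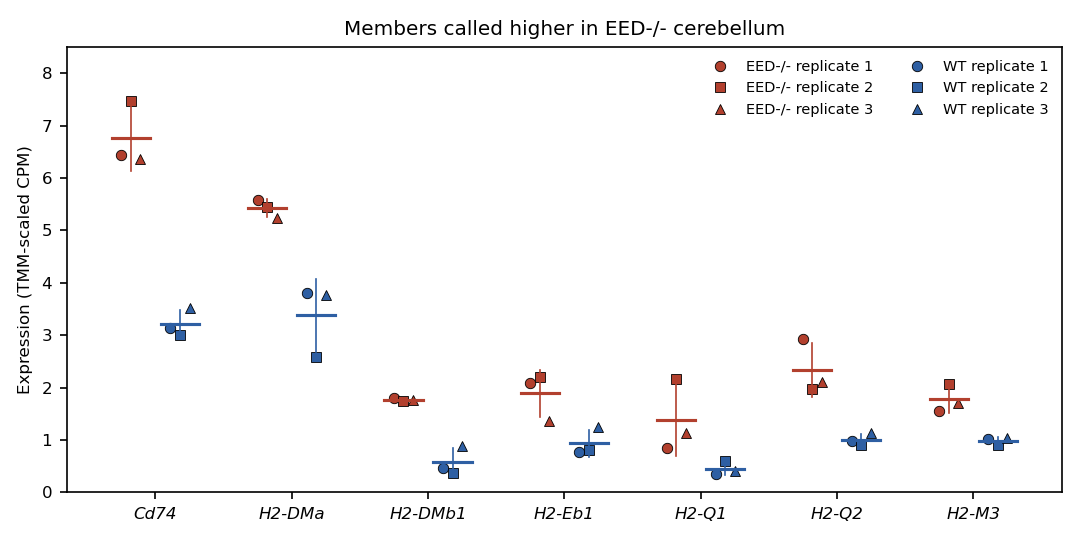
Expression in TMM-scaled CPM (linear axis from 0) of the 7 members called higher, 1 point per library, EED-/- left of WT for each gene, with lines for the mean ± SD. The groups do not overlap in any of the 7, and H2-Eb1 has the closest approach, 1.37 CPM in EED-/- replicate 3 and 1.24 CPM in WT replicate 3.

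Of 13 tested class I heavy chain genes, 3 nonclassical genes of low abundance rose (23.1%, against 11.7% of all tested genes). H2-Q1, called, and H2-Q10, not called, reached the filter on low counts in only 1 WT library. The share therefore includes genes kept for their EED-/- level. The summed level of the family did not pass the test. H2-Q2 was at 2.94, 1.98 and 2.1 CPM in EED-/- libraries and at 0.975, 0.912 and 1.14 CPM in WT libraries. No libraries overlapped, and the fold was 2.31 (log2 fold change 1.21, SE 0.27, edgeR adjusted p = 0.012). H2-Q1 was at 0.852, 2.16 and 1.13 CPM in EED-/- libraries and at 0.359, 0.590 and 0.413 CPM in WT libraries. EED-/- replicate 2 was the highest, and the fold was 3.02 (log2 fold change 1.60, SE 0.44, edgeR adjusted p = 0.0278), resting on 7 to 11 counts per WT library. H2-M3, which presents N-formylated peptides, was at 1.56, 2.07 and 1.71 CPM in EED-/- libraries and at 1.03, 0.912 and 1.03 CPM in WT libraries. The groups did not overlap, with a fold of 1.79 (log2 fold change 0.84, SE 0.26, edgeR adjusted p = 0.0416). Reads shared by near-identical Q and T genes are divided among them by the quantifier, so the values of single genes of these families are uncertain.

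The classical heavy chains, which present peptides to cytotoxic T cells, did not pass the test. H2-D1 was at 85.6, 100.4 and 114 CPM in EED-/- libraries and at 141, 73.3 and 102 CPM in WT libraries, with the highest and the lowest library both WT (log2 fold change -0.08, adjusted p = 0.834; 0.035 with upper-quartile factors and 0.018 with library totals only). H2-K1 was at 27.5, 38.6 and 23.1 CPM in EED-/- libraries and at 19.1, 17.5 and 29.6 CPM in WT libraries (log2 fold change 0.43, adjusted p = 0.244). A further 8 nonclassical genes were tested and not called, with log2 fold changes between -0.21 (H2-M5) and 0.72 (H2-Q10). H2-T23, which encodes Qa-1, was at 6.53, 7.29 and 3.67 CPM in EED-/- libraries and at 4.62, 7.4 and 6.05 CPM in WT libraries, and H2-Q4 at 5.49, 6.4 and 5.68 CPM against 4.67, 4.61 and 6.72 CPM. The sum of the 24 class I heavy chain genes, which does not depend on how reads are divided among those 24, was 157, 189 and 167 CPM in EED-/- libraries and 188, 132 and 174 CPM in WT libraries. WT replicates 1 and 2 were near the top and at the bottom of the 6 values, and the log2 fold change was 0.06 (SE 0.15, edgeR adjusted p = 0.819). Leaving out EED-/- replicate 2 gave -0.021, and leaving out WT replicate 2 gave -0.085. Class I genes that are not annotated as protein-coding, such as H2-T10, H2-Bl, H2-K2 and H2-T-ps, are outside the sum and may share reads with it; H2-Bl was at 7.29 to 7.93 CPM in EED-/- and 7.99 to 11 CPM in WT libraries.

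The light chain B2m, shared by class I heavy chains, was at 49.9, 46.1 and 46.9 CPM in EED-/- libraries and at 29.3, 24.5 and 46.8 CPM in WT libraries. WT replicate 3 was within the EED-/- range and the other 2 WT libraries were below it (log2 fold change 0.51, SE 0.22, edgeR adjusted p = 0.127). Without WT replicate 3 the log2 fold change was 0.82 (edgeR adjusted p = 0.0118). This setting leaves out the library that overlapped, so its p-value is no measure of the spread with all libraries. Per kilobase of exon, B2m had the highest level of all members in EED-/- libraries, at 55.4 CPM per kb, ahead of H2-D1 at 38.7 and H2-K1 at 10.1 CPM per kb. In WT libraries H2-D1 was at 40.9 and B2m at 39.0 CPM per kb, and H2-K1 at 7.51 CPM per kb. The class II invariant chain Cd74 was at 4.03 CPM per kb in EED-/- and 1.92 CPM per kb in WT libraries. The log2 ratio of the summed heavy chains to B2m was 1.84 ± 0.193 in EED-/- and 2.33 ± 0.398 in WT libraries, a difference of -0.49 (exact two-sided permutation p = 0.2; the smallest p that 3 against 3 libraries allow is 0.1).

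None of the 6 member genes that make, move and load class I peptides was called, or had an unadjusted p under 0.05. Tap1, a subunit of the peptide transporter, was at 7.86, 10.2 and 5.68 CPM in EED-/- libraries and at 6.31, 4.51 and 5.89 CPM in WT libraries, which overlap (log2 fold change 0.50, edgeR adjusted p = 0.16). Without EED-/- replicate 3, the lowest of its group, Tap1 had a log2 fold change of 0.75 (edgeR adjusted p = 0.0496), and without EED-/- replicate 2, the highest, 0.28 (edgeR adjusted p = 0.456). Its partner Tap2 had a log2 fold change of 0.20 (adjusted p = 0.466), and tapasin, Tapbp, which bridges the transporter and class I, -0.14 (adjusted p = 0.58). Psmb8, a catalytic subunit of the immunoproteasome, was at 2.98, 3.43 and 2.45 CPM in EED-/- libraries and at 1.80, 1.66 and 2.79 CPM in WT libraries (log2 fold change 0.50, edgeR adjusted p = 0.205). WT replicate 3 lay within the EED-/- range. Psmb9 and Psmb10, the other immunoproteasome subunits, had log2 fold changes of -0.06 and 0.24. The constitutive subunits that these replace, Psmb5, Psmb6 and Psmb7, were at 39.3 to 70.1 CPM per kb in EED-/- libraries and at 35.6 to 64.9 CPM per kb in WT libraries, while Psmb8, Psmb9 and Psmb10 were at 0.285 to 9.87 CPM per kb in EED-/- and 0.299 to 8.33 CPM per kb in WT libraries. The log2 ratio of Psmb8 to Psmb5 differed by 0.42, of Psmb9 to Psmb6 by -0.21 and of Psmb10 to Psmb7 by 0.10 (EED-/- minus WT; exact two-sided permutation p = 0.4, 0.5 and 0.6, each 0.6 after Benjamini-Hochberg adjustment over the 3). The Psmb8 to Psmb5 ratio was -4.41 ± 0.101 in EED-/- and -4.84 ± 0.483 in WT libraries on the log2 scale, with WT replicate 3 at -4.31 above all EED-/- libraries. Its difference was 0.69 without WT replicate 3 and 0.21 without WT replicate 1.

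Both transactivators had negative log2 fold changes without passing the threshold. Ciita, the regulator of class II genes, was at 1.37, 1.18 and 1.13 CPM in EED-/- libraries and at 2.31, 2.58 and 1.5 CPM in WT libraries. Every EED-/- library was below every WT library, and the log2 fold change was -0.79 (SE 0.28, edgeR adjusted p = 0.0697). Without WT replicate 3, the WT library nearest to the EED-/- range, it was -0.99 (edgeR adjusted p = 0.0492). Nlrc5, the regulator of class I genes, was at 1.33, 0.894 and 1.08 CPM in EED-/- libraries and at 2.21, 1.23 and 1.19 CPM in WT libraries, which overlap (log2 fold change -0.49, adjusted p = 0.322). Without WT replicate 1 the log2 fold change of Nlrc5 was -0.090 (edgeR adjusted p = 0.869). H2-Ke6, which carries an H2- symbol for its position and encodes a steroid dehydrogenase, was at 15.6, 17.1 and 11.1 CPM in EED-/- libraries and at 19, 14.2 and 16.7 CPM in WT libraries (log2 fold change -0.19, adjusted p = 0.505).

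Among 13 tested factors of MHC promoters, 4 fell and 1 rose, with a median log2 fold change of -0.25; over all tested genes 14.1% were lower and 11.7% higher. Nfyc and Nfyb, subunits of the CCAAT-binding factor NF-Y, had log2 fold changes of -1.0 (edgeR adjusted p = 0.000843) and -0.62 (edgeR adjusted p = 0.00955). Nfyc was at 30.2, 31.4 and 28.0 CPM in EED-/- libraries and at 67.2, 54.3 and 57.8 CPM in WT libraries. Rfxank and Rfxap, subunits of the RFX complex, had -0.53 and -0.37 (edgeR adjusted p = 0.0232 and 0.0401); these 2 were named after their values were seen. Rfxap lost the call in each of the settings that left out a library, and Rfxank without EED-/- replicate 1, 2 or 3 or WT replicate 1. The factor that rose was Irf8, a regulator of macrophages and microglia, at 6.30, 7.01 and 9.64 CPM in EED-/- libraries and at 3.64, 2.74 and 2.89 CPM in WT libraries (log2 fold change 1.30, edgeR adjusted p = 0.00393). Nfya and Rfx5, the remaining subunits of these complexes, were not called, with -0.08 and -0.23.

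Of the 12 tested genes of interferon receptors and signalling, 1 rose and 2 fell, with a median of -0.11. These counts were near the shares over all tested genes, 11.7% higher and 14.1% lower. Stat2, which carries the type I interferon signal, was at 23.7, 26.0 and 27.1 CPM in EED-/- libraries and at 70.7, 62.7 and 66.1 CPM in WT libraries (log2 fold change -1.38, edgeR adjusted p = 0.000126). The feedback inhibitor Socs3 had -0.92 (edgeR adjusted p = 0.00448), and the interferon-gamma receptor chain Ifngr1 0.40 (edgeR adjusted p = 0.0388). The interferon genes Ifng and Ifnb1 had 0 counts in all libraries. Ifngr1 lost the call without EED-/- replicate 1, 2 or 3 or WT replicate 2 or 3.

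In the class II processing list, 3 of 9 tested genes rose and none fell (median 0.18). Ctss, the cathepsin that trims the invariant chain, was at 25.3, 21.7 and 39.4 CPM in EED-/- libraries and at 11.6, 18.1 and 14.9 CPM in WT libraries (log2 fold change 0.96, edgeR adjusted p = 0.0244). Cathepsin Z, Ctsz, had a log2 fold change of 0.74 (edgeR adjusted p = 0.0165), and March1, a ubiquitin ligase that removes class II from the cell surface, 0.95 (edgeR adjusted p = 0.0476). Of 5 tested class I-like genes outside the MHC, Mr1, which presents vitamin metabolites, rose (log2 fold change 0.99, edgeR adjusted p = 0.00469). Of 6 tested costimulation and adhesion genes, Cd86 rose (1.09, edgeR adjusted p = 0.0195), as did Icam1 (0.98, edgeR adjusted p = 0.00923). Of the 6, 4 had positive log2 fold changes. Icosl, named after its values were seen, went the other way without passing the threshold (-0.82, edgeR adjusted p = 0.0569). None of 6 peptide loading and trimming genes was called (smallest p Pdia3, 0.35, edgeR adjusted p = 0.0682), nor of 3 constitutive proteasome subunits (Psmb7, 0.14, edgeR adjusted p = 0.339). The same held for 5 proteasome activators and assembly factors (Psme1, 0.41, edgeR adjusted p = 0.1). It held also for 4 receptors that bind MHC molecules or are related to such receptors (Lilrb4a, 2.50, edgeR adjusted p = 0.0508). Lilrb4a is listed as a related receptor, and no binding of MHC molecules by it is implied. At an unadjusted p under 0.05 these 4 lists held 3, 0, 1 and 2 genes, all with positive log2 fold changes. Over all 9 lists, 8 of 62 tested genes were higher and 6 lower, with a median of 0.12, and shares of 11.7% and 14.1% of all tested genes were higher and lower. The higher genes numbered 14 with upper-quartile factors, 13 with library totals only, 3 without WT replicate 3 and 4 without EED-/- replicate 1. Without WT replicate 3, Ctss, Ctsz, March1, Cd86 and Ifngr1 each lost the call. Ctss lost it also without EED-/- replicate 1, Ctsz without EED-/- replicate 2, Cd86 without EED-/- replicate 1 or 3, and March1 without any EED-/- replicate. Pdia3 gained a call without WT replicate 2, Psme1 without EED-/- replicate 3, and Lilrb4a without EED-/- replicate 2 or WT replicate 2.

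Most microglial markers were higher in EED-/- libraries, beside 11.7% of all tested genes. Of 18 microglial markers 16 were called higher and none lower, with a median log2 fold change of 0.98, and their summed level was 476 to 529 CPM in EED-/- and 257 to 270 CPM in WT libraries. Examples are Cx3cr1 (log2 fold change 0.95, edgeR adjusted p = 0.000682) and Fcrls (1.35, edgeR adjusted p = 0.00021); P2ry12 and Tmem119 were the 2 not called, at 0.94 and 0.52. Of 6 markers of border macrophages, Mrc1 and Pf4 were called higher (1.15 and 1.23), and the summed level was 18 to 24.2 CPM in EED-/- and 10.5 to 11.9 CPM in WT libraries. Set against the mean log2 CPM of the 18 microglial markers in the same library, Cd74 was at -1.51 ± 0.199 in EED-/- and -1.58 ± 0.177 in WT libraries, a difference of 0.07 (exact two-sided permutation p = 0.7). The summed class II chains differed by -0.11 (p = 0.9, exact permutation), H2-DMa by -0.29 (p = 0.4, exact permutation), H2-DMb1 by 0.73 (p = 0.2, exact permutation) and B2m by -0.44 (p = 0.3, exact permutation). Without WT replicate 3 the differences were 1.1 for H2-DMb1 and -0.16 for B2m, and without WT replicate 2 they were 0.42 for H2-DMb1, -0.68 for B2m and -0.53 for H2-DMa. For H2-DMa the difference was -0.15 without WT replicate 1 and -0.19 without WT replicate 3. The summed class I heavy chains differed by -0.93, with no overlap of libraries (exact permutation p = 0.1, the smallest possible). The marker mean itself was 4.19 to 4.34 in EED-/- and 3.18 to 3.36 in WT libraries, and the class I sum had a log2 fold change of 0.06. A sum that hardly changed would separate in this way, so the difference restates the rise of the markers and shows no change in class I. After Benjamini-Hochberg adjustment over these 6 quantities no p was under 0.6. The part of microglia or macrophages in the differences of the members was not tested.

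**Figure D4:**
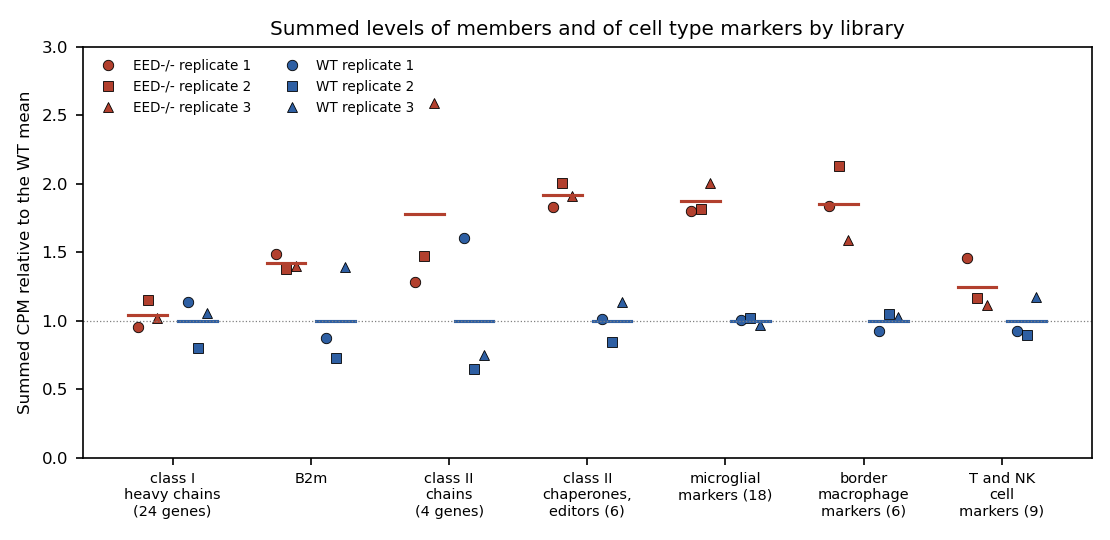
Summed CPM of member groups and of cell type markers in each library, relative to the WT mean of that sum (linear axis from 0, dotted line at 1, short lines for group means), EED-/- left of WT. The class I sum overlaps between genotypes (157 to 189 CPM in EED-/-, 132 to 188 CPM in WT), while the microglial marker sum does not (476 to 529 CPM against 257 to 270 CPM).

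Markers of T and NK cells were low. Of 9 T and NK cell markers 2 were tested and none called, and their sum was 1.66 to 2.18 CPM in EED-/- and 1.34 to 1.76 CPM in WT libraries. Cd3e had 2 to 5 counts per library in EED-/- and 1 to 4 in WT. The 5 B cell markers summed to 13.9, 12.7 and 9.35 CPM in EED-/- libraries and to 2.77, 4.13 and 4.91 CPM in WT libraries, and most of the sum in EED-/- libraries was Pax5, at 12.5, 11.3 and 7.68 CPM there. Of the 5 B cell markers 2 were tested, and only Pax5 was called (log2 fold change 2.10, edgeR adjusted p = 0.00719). Pax5 is also a transcription factor of the developing midbrain and hindbrain. The other tested B cell marker, Cd79a, had a negative log2 fold change and was not called (-0.86, edgeR adjusted p = 0.171). Of 4 tested dendritic cell markers Itgax was called higher, at 1.47, 2.02 and 6.51 CPM in EED-/- and 0.308, 0.161 and 0.258 CPM in WT libraries, with EED-/- replicate 3 the highest, and Zbtb46 was called lower (log2 fold change -1.57). None of 3 tested monocyte and neutrophil markers was called or had an unadjusted p under 0.05. Of 9 endothelial markers 2 were called higher (22.2%, against 11.7% of all tested genes), with a median of 0.13. All 6 markers of meningeal fibroblasts were called higher, with sums of 813 to 1111 CPM in EED-/- and 347 to 423 CPM in WT libraries, and all 5 of skeletal muscle, at 72.9 to 109 CPM in EED-/- and 3.23 to 3.36 CPM in WT libraries. Red blood cell markers summed to 1775, 1264 and 355 CPM in EED-/- libraries and 555, 255 and 312 CPM in WT libraries, with none of 5 called and 4 at an unadjusted p under 0.05. How these cells bear on the members was not tested.

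Of the called members, Cd74 and H2-DMb1 kept the call in all 14 other settings run, with log2 fold changes of 0.99 to 1.19 and 1.39 to 2.06. Over the edgeR, DESeq2 and limma-voom settings the highest adjusted p was 0.0162 for Cd74 and 0.0449, close to the threshold, for H2-DMb1. H2-Q2 kept the call in 13, losing it without EED-/- replicate 1 (edgeR adjusted p = 0.0621). H2-Q1 kept it in 11. It lost the call without EED-/- replicate 2 (edgeR adjusted p = 0.106), WT replicate 1 (edgeR adjusted p = 0.0669) or WT replicate 3 (edgeR adjusted p = 0.096). H2-DMa kept it in 7, H2-Eb1 in 6 and H2-M3 in 4 of the 14, and all of them stayed higher in EED-/- libraries in every setting. H2-M3 lost it without any 1 of the 6 libraries. H2-DMa lost it without EED-/- replicate 1, 2 or 3 or WT replicate 2 or 3, and H2-Eb1 without EED-/- replicate 1 or 2 or any WT library. H2-DMa, H2-Eb1 and H2-M3 also lost it with DESeq2 and with the replicate block, H2-Eb1 with limma-voom and H2-M3 without the filter. The number of members called higher was 3 without EED-/- replicate 1 or 2 and 4 without WT replicate 1, 2 or 3. It was 6 without EED-/- replicate 3 alone and 8 without EED-/- replicate 3 and WT replicate 1 together. That pair was chosen by its values in genes such as H2-Ab1, so the 8 is not a test. Over all genes the higher calls numbered 1205 and 1337 without EED-/- replicate 1 and 2, 2176, 2034 and 1324 without WT replicate 1, 2 and 3, 1932 without EED-/- replicate 3 and 2684 without the pair, against 2125 with all libraries.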

How the data were processed

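Polyadenylated RNA of whole cerebellum was sequenced in 3 EED-/- and 3 WT libraries, per the labels; 6 ChIP-seq samples of the series were not analysed here. The deposited table holds the authors' estimated counts per gene and library, unscaled between libraries, with 22.5% to 23.6% of the values per library fractional (tolerance 1e-06). Per the submitters' processing notes, tools were Salmon 1.1.0, Trimmomatic 0.36, Bowtie2 2.4.1, MACS2 and DESeq2 1.26.0, with builds GRCm38 and mm10 and no roles given. The authors' deposited table of differences gives a log2 fold change and a p-value per gene. According to the file headers, the authors also listed a mean normalized signal over all libraries and, as score columns, a standard error and a test statistic, none of which was used here. Use of strand in counting is not stated, so overlapping and antisense genes cannot be told apart.

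Here estimated counts were rounded to whole numbers, filtered with filterByExpr, scaled by TMM and tested with edgeR 4.0.16 (quasi-likelihood, robust, genotype as the only term, two-sided) in R 4.3.3; called means a Benjamini-Hochberg adjusted p under 0.05 over 18091 tested genes. SEs are the absolute log2 fold change over the square root of F. The intervals that 0 counts allow (3 counts) cover counting error only, since amplified reads carry no molecular identifiers. Alternatives were DESeq2 1.42.0, limma-voom (limma 3.58.1), other scalings, no filter, a replicate block and leaving out libraries. The procedure was tested on simulated data. The members, the lists, the rule for named genes and the tests were chosen with earlier results of these data known. The rule named Eed, every called member, the member with the smallest p in a role group with no call, up to 3 called genes per pathway list or else the one with the smallest p, and defining cell type markers; other members complete their groups. Promoters come from RefSeq (GRCm38.p6). Same-numbered libraries did not deviate together (correlations 0.028, -0.23 and -0.0012 across genes).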

Additional observations from a re-analysis of the deposited data

How the results depend on the processing

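The count of 7 higher members was 4 with DESeq2, 6 with limma-voom and without the filter, 7 under each other scaling, and 3 to 8 when libraries were left out; the count of 0 lower members was 0 to 1, the 1 being Ciita without WT replicate 3 (adjusted p = 0.0492). The libraries share only their replicate numbers; with these as a replicate block, 4 members were higher and none lower, and over all genes 1505 were higher and 1706 lower, with 18091 tested. Leaving out libraries moved the higher genes of the whole table between 1205 and 2684 and the lower between 1335 and 2600. The 8 higher pathway genes were 14 with upper-quartile factors, 13 with library totals only and 3 to 12 with libraries left out. The log2 fold change of the class I sum ranged from -0.085 to 0.23 and of the class II sum from 0.52 to 1.40 with libraries left out. The ratio differences ranged from -0.37 to 0.090 for Psmb9 over Psmb6 and from -0.045 to 0.23 for Psmb10 over Psmb7; relative to microglial markers, the class II sum ranged from -0.42 to 0.33 and Cd74 from -0.036 to 0.18. With upper-quartile factors, and with library totals only, the log2 fold change turned positive for H2-D1 (0.035 and 0.018), H2-T23 (0.073 and 0.062) and Psmb9 (0.049 and 0.040), and with upper-quartile factors for H2-T24 (0.0041). With libraries left out, these and other uncalled members took either sign: H2-D1 from -0.29 to 0.24, H2-Q6 from -0.40 to 0.41, H2-T22 from -0.19 to 0.44, H2-T23 from -0.24 to 0.25, H2-T24 from -0.31 to 0.13, Psmb9 from -0.34 to 0.47, H2-Ke6 from -0.32 to 0.13 and Tapbp from -0.28 to 0.16. The cause of these changes was not tested. Of 658 recomputed log2 fold changes of single named genes, 539 kept direction and side of the threshold, 72 lost a call, 19 gained one and 28 changed sign. Leaving out EED-/- replicate 3 and WT replicate 1 together was chosen after seeing the data. Members below about 1 CPM rest on fewer than about 20 counts per library, which limits what could be detected in them.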
